A study of Arabidopsis thaliana with 9 samples.

Results

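The GAMYB-like genes are a small group of R2R3-MYB transcription factor genes named after GAMYB of barley, a MYB protein induced by gibberellin in the aleurone. The 6 genes described here were chosen by locus, as MYB33 (AT5G06100), MYB65 (AT3G11440), MYB81 (AT2G26960), MYB97 (AT4G26930), MYB101 (AT2G32460) and MYB120 (AT5G55020). They are 6 of the 32833 loci in the count table, and each had counts in at least 3 libraries and passed the filter on low counts. RNA was sequenced from stamens (the male group), gynoecium (the female group) and leaf of Arabidopsis thaliana Col-0, a wild-type laboratory accession, with 3 libraries per group and no treatment or mutant. The labels give the same stage, flower bud differentiation, for all 9 libraries. The protocol names total RNA extracted with Trizol from leaves and immature floral buds. The series text speaks of gametophytes, but the labelled tissues are whole organs, in which pollen and ovules lie among the cells of the plant that bears them. The labels do not say whether libraries of a group came from separate plants, so a p-value measures only the spread between these libraries, which may be technical.

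Gibberellin acts through the degradation of DELLA proteins, which hold back growth and stamen development, and GAMYB proteins act in this pathway. In Arabidopsis, MYB33 and MYB65 act redundantly in the tapetum, the anther cell layer that feeds developing pollen, and plants lacking both fail to make pollen under many conditions. MYB81 acts in the microspore before its asymmetric division. MYB97, MYB101 and MYB120 act in the pollen tube, and tubes that lack all of them fail to release their sperm cells in the ovule. The microRNA miR159 guides the cleavage and repression of MYB33 and MYB65 mRNA outside the anther, and the other members carry sites for the same microRNA.

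The miR159 sequences and the sites they match are shown because the site is the feature that the 6 genes share in their coding sequence. The mature sequences are those of RefSeq on the TAIR10.1 assembly, written 5′ to 3′, with the seed (bases 2 to 8) in capitals. The 3 loci share that seed and differ from each other only near the 3′ end.
MIR159A: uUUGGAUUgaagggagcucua
MIR159B: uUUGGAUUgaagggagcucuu
MIR159C: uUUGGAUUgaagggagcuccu
MIR159A lies on chromosome 1 (minus strand), MIR159B on chromosome 1 (plus strand) and MIR159C on chromosome 2 (plus strand).

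For each gene, the transcript with the longest coding sequence was searched for the 21-base window with the most Watson-Crick pairs to the MIR159A sequence. Other transcripts of a gene were not searched. The sites are read 5′ to 3′ along the mRNA from the TAIR10.1 sequence, and capitals mark the bases that do not form a Watson-Crick pair.
MYB33: uGgagcucccuucaUuccaaU
MYB65: uGgagcucccuucaUuccaaU
MYB81: uCgagUucccuucaUuccaaU
MYB101: uagagcuUccuucaaAccaaa
MYB97: AUgagcucUcuucaaAccaaa
MYB120: AGCagcucccuucaaAccaaa
The sites of MYB33 and MYB65 were identical, with 18 pairs of 21. MYB101 had 19 pairs, and MYB81, MYB97 and MYB120 had 17 each. The next best window of these transcripts held 12 to 14 pairs. Counted from the 5′ end of the microRNA, the unpaired seed base was base 7 in MYB33, MYB65 and MYB81, and base 6 in MYB97, MYB101 and MYB120. The unpaired base thus separated the genes known from the pollen tube from those known from tapetum and microspore. All 6 sites lay in coding sequence and began at the second base of a codon. The site stood at bases 938 to 958 of 1563 in MYB33 (chromosome 5, plus strand, exon 3 of 4) and at bases 977 to 997 of 1662 in MYB65 (chromosome 3, plus strand, exon 3 of 4). In MYB81 it covered bases 863 to 883 of 1284 (chromosome 2, minus strand, exon 2 of 2). The pollen tube genes carried it at bases 896 to 916 of 1473 in MYB101 (chromosome 2, minus strand, exon 2 of 3), 665 to 685 of 1170 in MYB97 (chromosome 4, plus strand, exon 2 of 3) and 1169 to 1189 of 1572 in MYB120 (chromosome 5, minus strand, exon 2 of 2). A match describes the letters and is no evidence of cleavage. In all, 18 of 27558 genes searched (0.0653%) had a window with at least 17 pairs. That cutoff was the lowest number of pairs among the 6 members, so all 6 are among the 18 by construction.

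All 6 genes were higher in stamens than in both other tissues, and the group changed in make-up as well as in amount. MYB33 and MYB65 had counts in every library. MYB81, MYB97 and MYB120 had counts in the 3 stamen libraries and none in the other 6, and MYB101 had a single count outside stamens. MYB81, MYB97, MYB101 and MYB120 passed the filter on low counts through stamens alone. Their calls as higher in stamens were thus nearly fixed by the filter. Of all genes tested, 46.3% were higher in stamens than in gynoecium and 50.0% were higher in stamens than in leaf, by edgeR's quasi-likelihood test with a Benjamini-Hochberg adjusted p under 0.05. Counts in the 3 stamen libraries and no other were found at 2404 loci, or 7.32% of the loci in the table, and 3 of the 6 members were among them. The table also holds loci with no count in any library, and 24400 of its 32833 loci had a count.

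**Figure D1:**
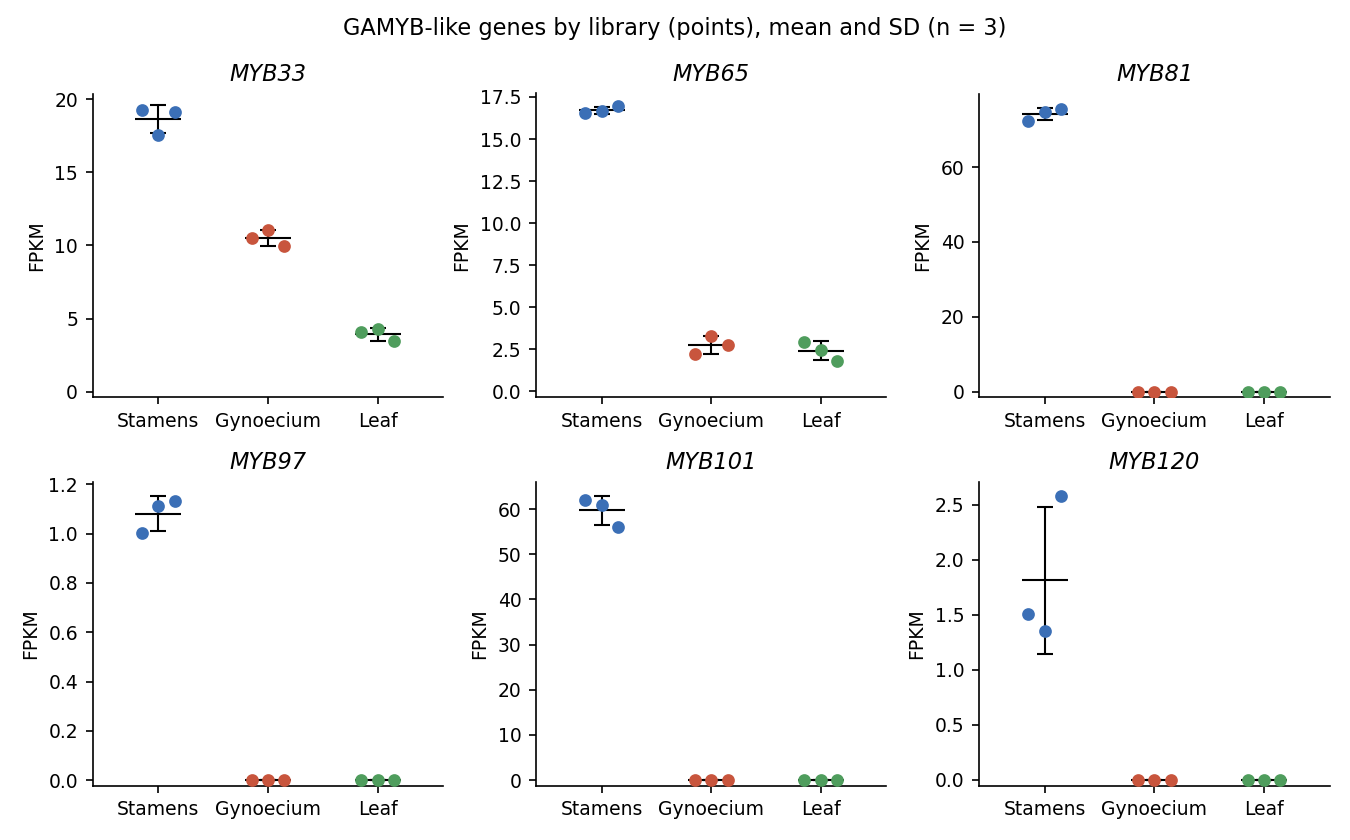
FPKM of each GAMYB-like gene in the 9 libraries. Points are libraries, the horizontal line is the mean and the bars are 1 SD (n = 3), and each panel has its own linear axis starting at 0. MYB33 and MYB65 have points above 0 in every tissue, while the other 4 genes lie at or next to 0 in gynoecium and leaf.

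Levels are compared between genes as FPKM, the deposited fragments scaled by exon length and by library total, and between tissues as CPM, counts scaled by library total and TMM factor. In stamens the order by FPKM was MYB81, MYB101, MYB33, MYB65, MYB120 and MYB97. Means ran from 74.2 ± 1.69 FPKM (SD, n = 3) for MYB81 to 1.08 ± 0.0703 FPKM for MYB97. No library of a gene overlapped those of its neighbour in this order. The last step, from 1.81 FPKM in MYB120 to MYB97, was smaller than the range of the MYB120 libraries, which ran from 1.36 to 2.58 FPKM. MYB81 and MYB101 ranked 1264 and 1660 among the 22874 loci with a count in stamens. MYB33 and MYB65 ranked 6033 and 6612, and MYB120 and MYB97 ranked 16361 and 17859, with 28.5% and 21.9% of loci lower.

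MYB33 had counts of 967, 875 and 907 in stamen replicates 1 to 3, 553, 534 and 506 in gynoecium, and 182, 206 and 166 in leaf. In CPM these were 56.0, 51.5 and 55.9 in stamens, 23.2, 24.2 and 21.9 in gynoecium, and 13.9, 14.7 and 11.8 in leaf. The 3 tissues did not overlap, with stamens highest and leaf lowest. MYB33 was 2.36-fold higher in stamens than in gynoecium (log2 change 1.24 ± 0.0658 SE, edgeR adjusted p = 7.423e-26) and 4.05-fold higher than in leaf (log2 change 2.02 ± 0.0784 SE, edgeR adjusted p = 6.969e-33). Gynoecium stood 1.72-fold above leaf (log2 change 0.78 ± 0.0846 SE, edgeR adjusted p = 1.095e-12), a value that became 2.68-fold when libraries were scaled by their totals alone.

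MYB65, the closest relative of MYB33 among the 6, had counts of 745, 746 and 723 in stamens, 105, 143 and 126 in gynoecium, and 120, 108 and 79 in leaf. In CPM it stood at 43.1, 43.9 and 44.55 in stamens, 4.40, 6.49 and 5.45 in gynoecium, and 9.17, 7.69 and 5.62 in leaf. Stamens lay well above both other tissues, while gynoecium and leaf overlapped. MYB65 was 8.08-fold higher in stamens than in gynoecium (log2 change 3.01 ± 0.101 SE, edgeR adjusted p = 9.857e-33) and 5.88-fold higher than in leaf (log2 change 2.55 ± 0.107 SE, edgeR adjusted p = 1.405e-28). On the scale of log2(FPKM + 1) the first of these was 4.74-fold.

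Between gynoecium and leaf, edgeR called MYB33 higher in gynoecium, as it did 42.6% of all genes, and MYB65 lower, as it did 40.0%. The MYB65 difference was a log2 change of -0.46 ± 0.140 SE (adjusted p = 0.002414 in edgeR) between overlapping groups. It was not called and pointed the other way with library totals alone (log2 change 0.18, adjusted p = 0.2279 in edgeR), a scaling that moved the median of all genes by 0.55, so that MYB65 stood at -0.37 relative to that median. It also was not called without leaf replicate 1 (log2 change -0.29, adjusted p = 0.07347 in edgeR). The levels of MYB65 in gynoecium and leaf therefore have no order that holds across the settings tried. The other 4 genes had at most 1 count in all 6 of these libraries.

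The ratio of MYB33 to MYB65 within a library does not depend on how libraries are scaled against each other. By FPKM it was 1.17, 1.05 and 1.13 in stamens, 4.73, 3.36 and 3.61 in gynoecium, and 1.36, 1.71 and 1.89 in leaf. The pair were thus close to equal in stamens, MYB33 exceeded MYB65 in all 9 libraries, and the 3 tissues did not overlap. The mean log2 ratio was 0.16 ± 0.0744 (SD, n = 3) in stamens, 1.95 ± 0.261 in gynoecium and 0.71 ± 0.242 in leaf. An exact permutation test over the 3 groups gave p = 0.003571, the smallest its 1680 arrangements allow. Each pair of tissues gave p = 0.1 in a two-sided exact permutation test, the smallest that 3 libraries against 3 can give. The pair share 76.99% of the aligned bases of their coding sequences, with 45 bases as the longest identical run. How reads that match both were counted is not stated, so such reads may have been given to either gene or left out.

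**Figure D2:**
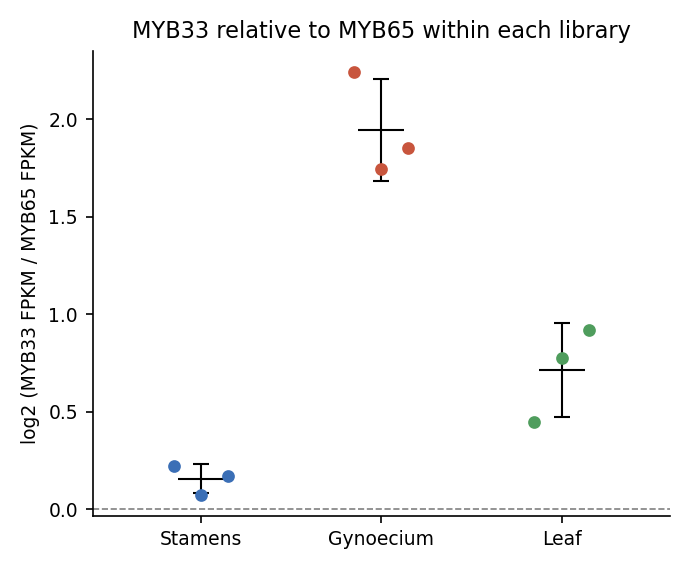
Log2 of the ratio of MYB33 to MYB65 FPKM within each library. Points are libraries, the line is the mean and the bars are 1 SD (n = 3), and the dashed line at 0 marks equal levels. Stamens lie nearest to 0 and gynoecium highest, between 1.75 and 2.24.

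MYB81, the microspore gene, had 1663, 1706 and 1644 counts in stamen replicates 1 to 3 and 0 counts in every gynoecium and leaf library. Its stamen level was 99.3 ± 2.69 CPM (SD, n = 3), and its libraries differed little. A count of 0 allows up to 3 counts per library, on average 0.131 CPM in gynoecium and 0.219 CPM in leaf. Against that floor MYB81 was at least 761-fold higher in stamens than in gynoecium (edgeR adjusted p = 3.603e-53) and at least 454-fold higher than in leaf (edgeR adjusted p = 3.392e-50). These floors and the intervals given for other genes cover counting error only.

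MYB104 (AT2G26950) lies next to MYB81 on chromosome 2 with no locus between them, and the coding sequences share 74.8% of aligned bases. Its best miR159 window is shown because it is nearly that of MYB33.
MYB104: uGgagcucccuucaUuccaaG
MYB104 had 38, 48 and 58 counts in stamens and none elsewhere. The neighbours were alike in having counts in stamens alone but not in level, since MYB81 had 41.3, 33.5 and 26.7 times the FPKM of MYB104 in stamen replicates 1 to 3. MYB104 was at least 21.96-fold higher in stamens than in gynoecium (edgeR adjusted p = 1.734e-17). Like MYB81, it passed the filter on low counts through stamens alone, so this call was nearly fixed.

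MYB101, of the pollen tube genes, had 2115, 2064 and 1809 counts in stamens, 0, 1 and 0 in gynoecium and 0 in each leaf library. Its stamen level was 118.5 ± 6.09 CPM (SD, n = 3), or 59.7 ± 3.15 FPKM. The ratio of stamens to gynoecium was 8187, with an exact 95% interval of 1469 to 323400 that reflects the single gynoecium count (edgeR adjusted p = 5.986e-56). MYB101 was at least 541-fold higher in stamens than in leaf (edgeR adjusted p = 6.078e-53).

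MYB97 and MYB120, known to act together with MYB101, were far lower. MYB97 had 29, 32 and 31 counts in the stamen libraries (1.82 ± 0.127 CPM, SD, n = 3) and 0 elsewhere. MYB120 had 47, 42 and 76 counts (3.29 ± 1.21 CPM) and 0 elsewhere, and replicate 3 stood above both others. Low as they were, both genes were seen in all 3 stamen libraries. MYB97 was at least 14.0-fold higher in stamens than in gynoecium and at least 8.34-fold higher than in leaf (edgeR adjusted p = 1.476e-14 and 4.518e-12). MYB120 was at least 25.2-fold and at least 15.04-fold higher (edgeR adjusted p = 1.089e-17 and 4.77e-15). By FPKM, MYB101 exceeded MYB97 62.0, 54.8 and 49.6 times in stamen replicates 1 to 3, and exceeded MYB120 41.2, 44.9 and 21.8 times. The pollen tube genes were thus counted in the same tissue at very unequal levels. MYB97 and MYB120 share 77.43% of aligned coding bases, the highest share among the 6, with 32 bases as the longest identical run. How any reads that match both were counted is not stated.

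The exons of MYB97 share 170 bases, 10.5% of the total, with AT4G26940 on the opposite strand, and whether counting used strand is not stated. That neighbour had 33.5 ± 0.528 CPM in gynoecium and 105 ± 1.30 CPM in leaf, where MYB97 had 0 counts. MYB65 shares 47 bases (1.86%) with AT3G11450. MYB33, MYB81, MYB101 and MYB120 share no exon bases with another gene.

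Summed over the 6 genes, the level was 172.7, 172.3 and 171.5 FPKM in stamens, 12.7, 14.35 and 12.7 FPKM in gynoecium, and 7.01, 6.76 and 5.26 FPKM in leaf. FPKM carries no TMM factor, so the gaps between tissues differ from those in CPM. The factors were 0.955 to 0.966 in stamens, 1.27 to 1.28 in gynoecium and 0.815 to 0.817 in leaf. MYB81 made up 43.1 ± 1.12% (SD, n = 3) of the sum in stamens and MYB101 34.7 ± 1.72%. MYB33 and MYB65, the members studied most in the anther, made up 10.8 ± 0.557% and 9.70 ± 0.163% there. MYB33 alone made up 79.2 ± 2.96% of the sum in gynoecium and 62.1 ± 3.96% in leaf, and MYB65 nearly all of the rest. These are organ averages, in which fewer cells of a type and less RNA per cell cannot be told apart.

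**Figure D3:**
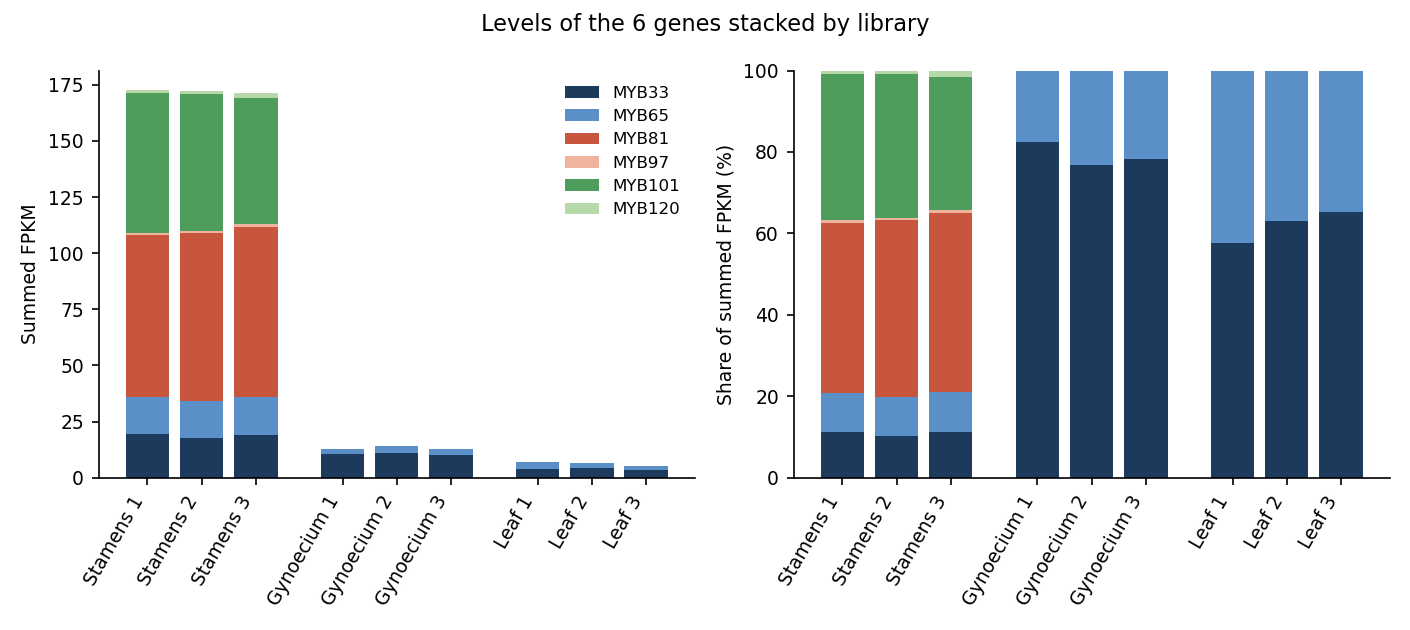
Levels of the 6 genes stacked by library, as summed FPKM (left) and as a percent of that sum (right); both axes start at 0. MYB81 and MYB101 fill most of the stamen bars, and MYB33 most of the gynoecium and leaf bars.

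The microRNA loci were counted in the same libraries. These reads come from precursor transcripts, of 184 bases for MIR159A and 196 for MIR159B, and the mature microRNA was not measured. MIR159A had 0 counts in all stamen libraries, 19, 22 and 14 in gynoecium, and 39, 46 and 32 in leaf. MIR159B had 8, 0 and 2 counts in stamens, 318, 322 and 321 in gynoecium, and 38, 40 and 62 in leaf, and MIR159C had none in any library. The precursor loci were thus lowest in the tissue where the 6 genes were highest. MIR159A was at least 4.49-fold higher in gynoecium and at least 15.95-fold higher in leaf than in stamens (edgeR adjusted p = 7.386e-09 and 3.774e-16). MIR159B was 68.0-fold higher in gynoecium than in stamens (log2 change of stamens over gynoecium -6.09 ± 0.271 SE, edgeR adjusted p = 1.453e-27). Stamen replicate 1 held 8 of its 10 stamen counts, and without that library the log2 change was -7.68. Leaf stood 16.6-fold above stamens for MIR159B (edgeR adjusted p = 2.456e-14), or at a log2 change of -5.65 for stamens over leaf without stamen replicate 1. The precursors had opposite orders in gynoecium and leaf. MIR159B was 4.09-fold higher in gynoecium (edgeR adjusted p = 7.992e-17, not called by limma-voom, adjusted p = 0.07891), and MIR159A was 3.54-fold higher in leaf (edgeR adjusted p = 7.972e-08). Any part of the microRNA in the differences of the 6 genes was not tested.

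**Figure D4:**
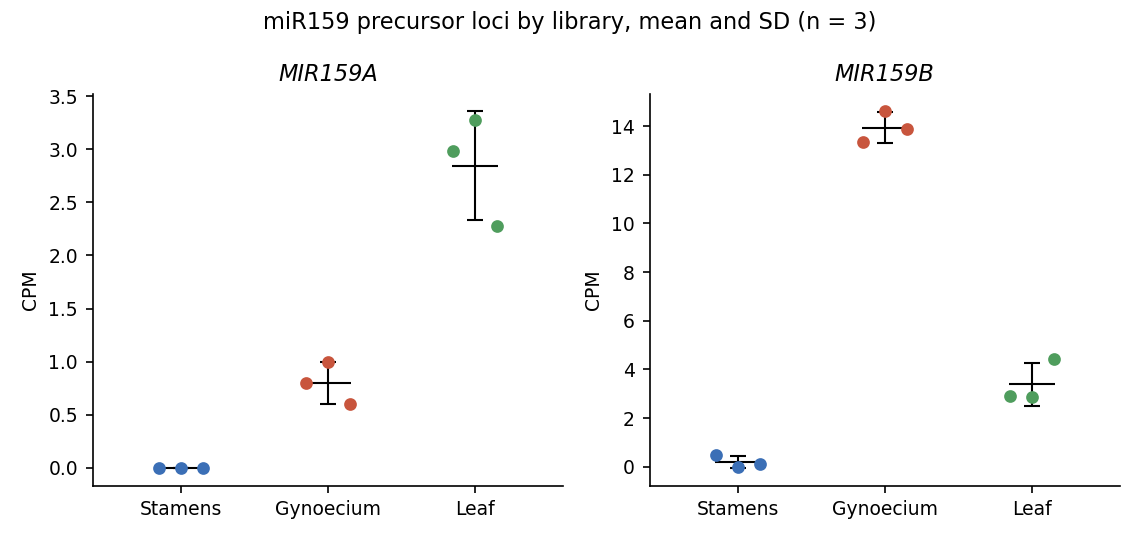
CPM of the MIR159A and MIR159B precursor loci by library. Points are libraries, the line is the mean and the bars are 1 SD (n = 3), on linear axes that differ between panels. Both loci are at or near 0 in stamens, MIR159A is highest in leaf and MIR159B highest in gynoecium, between 13.3 and 14.6 CPM.

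The other 12 genes with at least 17 pairs to MIR159A varied in tissue pattern. Of the 11 tested, 8 were higher and 2 lower in stamens than in gynoecium, with 1 not called, and 9 were higher and 1 lower in stamens than in leaf, with 1 not called. Higher calls took in 46.3% and 50.0% of all genes in these comparisons, and lower calls 39.0% and 37.9%. DUO1, a MYB gene of the male germline that controls division of the generative cell, had 100, 58 and 66 counts in stamens and none elsewhere. Its window had 18 pairs.
DUO1: uGgagcuccAuucGauccaaa
OPT1, an oligopeptide transporter gene, averaged 39.6 FPKM in stamens, 1.96 in gynoecium and 5.43 in leaf. AT5G04020 ran the other way, at 3.77 FPKM in stamens, 8.88 in gynoecium and 11.8 in leaf. It was the only counted gene of the 11 with its lowest mean in stamens. AT1G06720, the other gene called lower in stamens than in gynoecium, stood at 16.5, 26.6 and 4.84 FPKM in stamens, gynoecium and leaf.

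Genes for gibberellin perception and DELLA proteins were mostly lower in stamens than in gynoecium. Of 12 tested, 1 was higher, 10 were lower and 1 was not called, and the median log2 change was -0.78, beside 0.09 over all genes tested. Against leaf, 6 were higher in stamens, 5 were lower and 1 was not called (median 0.42, beside 0.23 over all genes). In gynoecium 10 of the 12 were higher than in leaf and 1 was lower. Among all genes tested, 46.3% were higher and 39.0% lower in stamens than in gynoecium. Against leaf these shares were 50.0% and 37.9% for stamens, and 42.6% and 40.0% for gynoecium. RGA1, a DELLA repressor, stood at 117 CPM in stamens and 261 CPM in gynoecium (log2 change -1.15, edgeR adjusted p = 1.693e-34). SEC, an enzyme that modifies DELLA proteins, was called higher in stamens (298 against 271.5 CPM, log2 change 0.13, edgeR adjusted p = 0.00059) and was called lower with library totals alone. With upper quartile scaling, 0 of the 12 were called higher in stamens than in gynoecium and 11 were called lower. GID1A, a gibberellin receptor gene, stood at 55.4 CPM in stamens and 113.6 CPM in leaf and was called lower. GID1C, of the same family, had 30.1 and 30.9 CPM in stamens and gynoecium, with an edgeR adjusted p of 0.6161.

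Genes of gibberellin synthesis were mixed. Of the 14, 9 were tested, with 3 higher, 5 lower and 1 not called in stamens against gynoecium (median -0.19), and 7 higher, 1 lower and 1 not called against leaf (median 1.27). GA2, which makes ent-kaurene, had 58.3 CPM in stamens and 34.3 CPM in gynoecium, and was called higher in stamens. GA3, which oxidises ent-kaurene, had 59.0 and 67.4 CPM and was called lower. GA3OX3, of the enzymes that make bioactive gibberellin, had 695 counts in stamens and 0 elsewhere, with a stamen mean of 12.6 FPKM. GA3OX1, of the same enzyme family, ran the other way, with 0 counts in stamens, 33 in gynoecium and 29 in leaf, and was called lower in stamens than in both (edgeR adjusted p = 1.691e-06 and 1.115e-07). GA1, which acts just before GA2, had 6.54 and 6.57 CPM in stamens and gynoecium and was not called. Among 6 tested genes that inactivate gibberellin, 3 were higher, 2 lower and 1 not called in stamens against gynoecium, and 3 were higher and 1 lower against leaf. The remaining 2, GA2OX4 and GA2OX8, had 0 counts in stamens and leaf and no difference to test. GA2OX8 had 78 counts in gynoecium and was called lower in stamens. GA2OX6 had 2.13 CPM in stamens, 1.55 CPM in gynoecium and 4.07 CPM in leaf, and was called lower in stamens than in leaf but not called against gynoecium. GA2OX2 had 39.1 CPM in stamens and 27.5 CPM in gynoecium, and its call was lost with library totals alone. Gynoecium against leaf gave 5 higher, 0 lower and 4 not called for synthesis, 1 of the 4 with no count in either tissue, and 4 higher and 2 lower for inactivation. Among all genes tested, 46.3% were higher and 39.0% lower in stamens than in gynoecium. Against leaf these shares were 50.0% and 37.9% for stamens, and 42.6% and 40.0% for gynoecium.

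All 8 tested genes of the microRNA machinery were higher in stamens than in leaf (median 0.99), and 7 of them were higher in gynoecium than in leaf. Among all genes tested these shares were 50.0% and 42.6%. Between stamens and gynoecium 2 were higher, 3 lower and 3 not called (median -0.10), beside 46.3% higher and 39.0% lower among all genes. AGO1, whose protein carries microRNAs, stood at 628 CPM in stamens, 933 CPM in gynoecium and 249 CPM in leaf. The stamen level was lower than that of gynoecium by edgeR (log2 change -0.57, adjusted p = 1.078e-24). DCL1, which cuts microRNA precursors, had 32.4 CPM in stamens and 20.7 CPM in gynoecium (log2 change 0.65). SE, a partner of DCL1, had 154 CPM and 149.6 CPM and was not called (edgeR adjusted p = 0.2815). With upper quartile scaling, and also with library totals alone, the split between stamens and gynoecium was 2 higher and 6 lower.

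Genes of the tapetum, where MYB33 and MYB65 are known to act, were mostly higher in stamens. Of 11 tested tapetum regulators, 9 were higher and 2 lower in stamens than in gynoecium, and 10 were higher and 1 lower than in leaf. Among all genes tested, 46.3% and 50.0% were higher in these comparisons. For 4 of the 11 regulators, with 0 counts in gynoecium and leaf, the higher calls were nearly fixed by the filter on low counts. The lower ones included EMS1, a receptor kinase of early anther cells, at 109 CPM in stamens and 119.5 CPM in gynoecium. TPD1, the ligand of EMS1, was lower in stamens than in leaf, at 3.92 CPM and 23.9 CPM. TGA9, a bZIP factor of anther development, had 148 CPM in stamens and 5.86 CPM in gynoecium. By FPKM in stamens, MYB33 (18.6) and MYB65 (16.7) stood near MYB80 (17.8) and MS1 (16.8), regulators of later tapetum development, below AMS (48.4), and above DYT1 (2.30), an early regulator. All 10 tested tapetum products were higher in stamens than in both other tissues. MS2, a reductase of pollen wall formation, had 1649 CPM in stamens and 4 counts in all of gynoecium. CP1, a protease gene known to rise in plants that lack miR159, had 171, 207 and 211 counts in stamens, 20, 21 and 34 in gynoecium and 0 in leaf. CP1 was 10.7-fold higher in stamens than in gynoecium (log2 change 3.42 ± 0.187 SE, edgeR adjusted p = 8.98e-25).

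Of 11 tested microspore and male germline genes, 10 were higher in stamens than in gynoecium and 1 was not called, and all 11 were higher than in leaf. The gene not called was MOR1, a microtubule protein gene, at 109 and 105 CPM. LBD27, required for microspore division, had 10397 counts in stamens and 0 in the other tissues. Its level of 125 FPKM was above that of MYB81, while DUO1 was at 3.91 FPKM, between MYB65 and MYB120. All 18 mature pollen and pollen tube genes were higher in stamens in both comparisons, beside 46.3% and 50.0% of all genes tested. Only 7 of the 18 had counts in gynoecium and 5 in leaf. Of the microspore and germline genes, 2 had counts in gynoecium and 3 in leaf. Genes at 0 in both tissues passed the filter on low counts through stamens alone, so their higher calls were nearly fixed. VGD1, a pectin methylesterase of the pollen tube, had 4291 CPM in stamens and 6.33 CPM in gynoecium. AGL104, a MADS-box gene of pollen, stood at 72.5 FPKM, next to MYB81. Between gynoecium and leaf, most genes of the pollen lists had no difference to test. For mature pollen 10 of 18 had 0 counts in both tissues, 5 were higher in gynoecium, 1 was lower and 2 were not called. For microspores 8 of 11 had 0 counts in both, 2 were higher and 1 was lower, and for tapetum regulators 4 of 11 had 0 counts in both, 6 were higher and 1 was lower. The tapetum products gave 8 higher, 1 lower and 1 not called. Among all genes tested, 42.6% were higher and 40.0% lower in gynoecium than in leaf. The pollen and tapetum lists were counted where the 6 genes were, and their parts in each member's level were not separated.

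Among 116 annotated genes with a MYB number, 82 had counts in stamens. MYB81 ranked 4 and MYB101 ranked 5 of these by FPKM, below MYB99 (259 FPKM), MYB73 and MYB70. MYB33 ranked 17, MYB65 19, MYB120 50 and MYB97 53. In gynoecium MYB33 again ranked 17, now of 61, and MYB65 ranked 32, while in leaf they ranked 25 and 34 of 53. Of the 71 tested MYB genes outside the 6, 36 were higher, 25 lower and 10 not called in stamens against gynoecium (median log2 change 0.26), 5 of the 10 with no count in either tissue. Against leaf, 43 were higher, 23 lower and 5 not called (median 1.21), 1 of the 5 with no count in either. Counts in stamens alone were found for 9 of those 71, beside 2404 of the 24400 loci with a count in any library. Among all genes tested, 46.3% were higher and 39.0% lower in stamens than in gynoecium, and 50.0% and 37.9% against leaf. MYB genes outside the 6 were thus called in both directions in both comparisons, as were genes in general. Of 6 tested MYB genes known for other roles in anthers and stamens, 5 were higher and 1 lower in stamens in both comparisons. MYB99 had 284 CPM in stamens and 0.778 CPM in gynoecium, and MYB32 had 5.48 and 8.82 CPM. Gynoecium against leaf gave 2 higher, 0 lower and 4 not called for these 6 genes, 1 of the 4 with no count in either tissue. In that comparison 42.6% of all genes tested were higher and 40.0% lower.

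**Figure D5:**
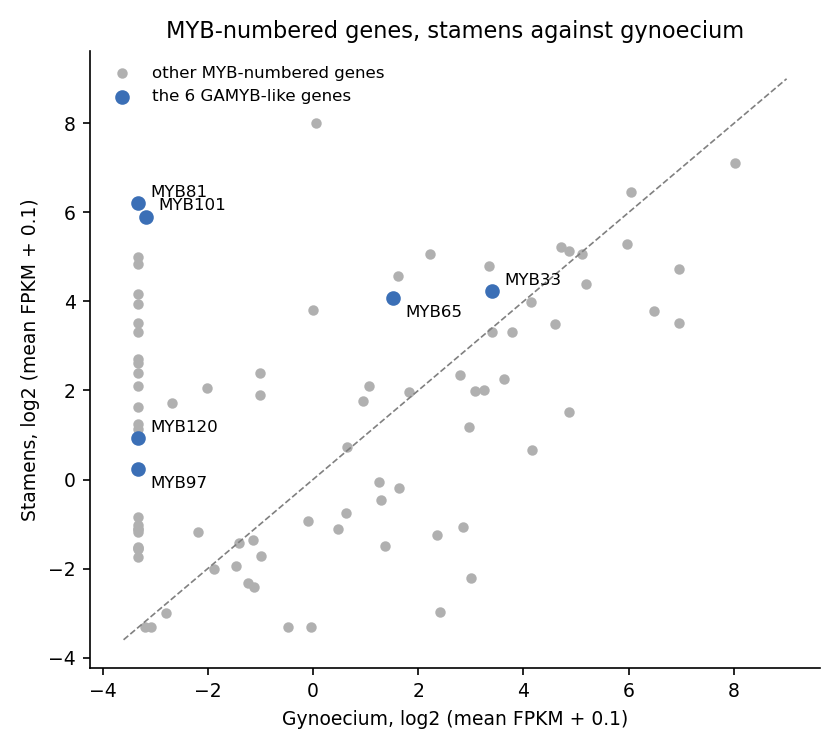
Mean level of each MYB-numbered gene in stamens against gynoecium, as log2(FPKM + 0.1), with the 6 GAMYB-like genes in blue and the other MYB genes in grey; the dashed line marks equal levels. MYB33 and MYB65 lie above the line among many others, and MYB81, MYB101, MYB120 and MYB97 lie at the left edge, where the gynoecium level is at or near 0.

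The genes nearest in pattern to each member were found by the mean absolute difference of centred log2 CPM over the 9 libraries, among 8703 tested genes with a symbol. This measure depends on level where a tissue is at 0. Nearest to MYB33 were AAC2, a mitochondrial ADP/ATP carrier gene (difference 0.0825), DCAF1 (0.0876) and ACLB-2, a subunit of ATP-citrate lyase (0.0889). For MYB65 they were SWEET1, a sugar transporter gene (0.122), AAO3, an aldehyde oxidase gene of abscisic acid synthesis (0.176), and AAE5 (0.179). MYB33 and MYB65 were farther from each other (0.664) than from these. MYB81 was nearest to NDB3 (0.0189), AGL104 (0.0226) and GAD5, a glutamate decarboxylase gene (0.0320), and MYB101 to DL1B (0.0982), ABCG17 (0.0996) and VSR2 (0.102). MYB81 and MYB101 differed by 0.1545 on this measure, the smallest value among the pairs of members. MYB97 was nearest to CYP72A14 (0.0283), AGL34 (0.0460) and SPH8 (0.0460). MYB120 was nearest to WOX11 (0.0956), GEX3, a gene of gametes (0.104), and AGL43 (0.107), all low in stamens and at 0 elsewhere.

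Library totals ran from 16042169 to 18756860 counts, and the common biological coefficient of variation was 3.62%. The marker genes matched the labelled organs. The stamen markers PI and AP3 summed to 1084 to 1139 CPM in stamens, 18.9 to 20.6 CPM in gynoecium and 0 in leaf. The 7 gynoecium and ovule markers summed to 506 to 522 CPM in gynoecium, 65.6 to 66.1 CPM in stamens and 2.75 to 3.56 CPM in leaf. SPT alone held 63.6 CPM of the stamen sum, and the other 6 markers summed to 1.88 to 2.66 CPM there, with STY1 at 0. The 6 leaf markers summed to 14360 to 15000 CPM in leaf, 767 to 802 CPM in stamens and 668 to 710 CPM in gynoecium. MYB98, the defining gene of the synergid, the ovule cell that receives the pollen tube, had 0 counts in all 9 libraries. Stamen genes were counted in gynoecium at a low level. The tapetum products summed to 53.2 to 60.1 CPM there, with all 10 above 0, against 5502 to 5565 CPM in stamens. That gynoecium sum was uneven. LAP6 had the most gynoecium counts of the 10, at 2277, while MS2, with 83252 stamen counts, had 4. In leaf, 3 of the 10 were counted too, among them LAP6 (199 counts) and CEP1 (114 counts). The mature pollen list summed to 58.1 to 60.8 CPM in gynoecium, with 7 of 18 above 0, against 7312 to 7657 CPM in stamens. In that list AGL30, at 22.9 CPM in gynoecium and 16.3 CPM in leaf, and AGL65, at 9.13 and 10.9 CPM, were counted in leaf too, while AHA9, with 85782 stamen counts, and TIP1;3, with 11572, were at 0 in gynoecium. Whether stamen RNA has a part in the gynoecium levels of MYB33 and MYB65 was not tested.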

How the data were processed

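The authors deposited whole-number counts of reads per locus and an FPKM table for 9 libraries. Bowtie2 2.2.3, HISAT2 2.1.0, TopHat2, HTSeq 0.6.0 and the TAIR10 genome are named, per the submitters' processing notes, and read filters, strand and annotation release are not given in the sources used here. The ratio of count to FPKM at each locus scaled with the library total (relative difference at most 1.3e-14), and the length it implies was within 10% of the TAIR10.1 exon length for 99.81% of loci. Of 32833 loci, 32548 matched that annotation, and coordinates are not printed because the builds differ.

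Differences between tissues were tested with edgeR 4.0.16 under R 4.3.3 (filterByExpr by group, TMM scaling, robust quasi-likelihood, all 9 libraries, 20827 genes tested, Benjamini-Hochberg adjusted p under 0.05 called). Standard errors come from the F statistic. The steps were tested on simulated data. Alternatives were other scalings, DESeq2 1.42.0, limma 3.58.1 (voom, and log2 FPKM with 1 or 0.1 added), filters, a replicate block, the libraries of a comparison alone and each library left out. A group at 0 was set to 3 counts per library for a lower bound. Same-tissue libraries differed beyond sampling noise (chi-square per degree of freedom 1.77 to 3.10), so none was a repeat deposit.

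The members and gene lists were chosen with earlier results of these data known. Lists hold 125 entries, and 5 were left out for an unmatched symbol. Named were all members, MYB104, DUO1, CP1, the miR159 loci, from each list up to 4 of the genes that had, in a comparison, the highest CPM among those called in a direction or not called, and the 3 genes nearest in pattern to each member. AMS, MYB80, MS1, GA3OX3, AHA9, TIP1;3, MYB73, MYB70, OPT1, AT1G06720 and AT5G04020 were named after their values were seen.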

Additional observations from a re-analysis of the deposited data

How the results depend on the processing

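All 6 genes remained called higher in stamens, in both comparisons, under all 20 alternatives. MYB81, MYB97, MYB101 and MYB120 were counted almost only in stamens and entered the fits through them. For these genes that outcome was nearly fixed. The unstable result was MYB65 between gynoecium and leaf. Its log2 change was 0.18 with library totals alone, 0.14 on log2(FPKM + 1) and 0.19 on log2(FPKM + 0.1), each in the opposite direction and not called. Members called between gynoecium and leaf fell from 2 to 1, and those called lower in gynoecium from 1 to 0, under these 3 settings. Leaving out each library in turn gave 1 to 2 members called and 0 to 1 called lower, with the call lost without leaf replicate 1. The FPKM settings also change the test and add an offset, and which of these ended the call was not tested. Library totals alone moved the median log2 change of all genes by -0.37 for stamens over gynoecium, 0.23 for stamens over leaf and 0.55 for gynoecium over leaf. The share of calls that were higher moved with it, from 54.3% to 39.8%, from 56.9% to 62.9% and from 51.6% to 67.3%. With upper quartile scaling these shares were 48.6%, 55.5% and 54.1%. The call of MIR159B between gynoecium and leaf was lost in limma-voom (log2 change 2.05), and the cause was not tested. The difference in mean log2 ratio of MYB33 to MYB65 between gynoecium and stamens ran from 1.64 to 1.89 over the libraries left out.

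Same-numbered libraries did not deviate together (correlations -0.0521 to 0.0541). Noise between libraries could hide a weak shared effect, so this does not settle whether the numbers pair them. With the replicate block, 17644, 18204 and 17100 genes were called, beside 17773, 18305 and 17192 without it, and MYB65 between gynoecium and leaf had a log2 change of -0.46. With 29 to 76 counts per stamen library, MYB97 and MYB120 are the members whose levels depth limits most.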
